A study of Bienertia sinuspersici with 9 samples.

Results

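Mature and young leaves of wild-type Bienertia sinuspersici were compared over all 11709 unigenes (assembled transcripts without close duplicates) with deposited TPMTMM values. TPM is the share of a transcript among all transcripts of a library, corrected for its length, and TPMTMM is TPM scaled between libraries by the trimmed mean of M values. The TPM table of the series holds 36907 unigenes, so 25198 were not tested. Mature leaves were longer than 2 cm and only their tip part was sampled, while young leaves were shorter than 0.3 cm and no part of them is named. Each stage had 3 libraries, out of 9 in the series, and the other 3, from intermediate leaves (0.3 to 0.7 cm), entered the fit for the estimate of the spread. All came from greenhouse plants that were watered with NaCl. Whether a difference belongs to the stage or to the sampled part cannot be told apart. The sources used here do not name the plants of each replicate, and the p-values cover only the spread among these libraries, which may be technical.

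Bienertia carries out C4 photosynthesis within single cells, without the pair of leaf cell types that most C4 plants use. In its mature leaf cells, peripheral chloroplasts regenerate the acceptor for the first fixation of CO2, phosphoenolpyruvate carboxylase fixes CO2 in the cytosol, and NAD-malic enzyme releases it in mitochondria next to central chloroplasts, where Rubisco fixes it again. The cells of very young leaves have not yet formed these separate compartments. Expanding leaves also still lay down walls and cuticle and hold dividing cells. In RNA of whole leaf tissue, fewer cells of a type and less RNA per cell cannot be told apart.

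The study designed qRT-PCR primers for the C4 cycle and for reference genes. The pairs of 4 unigenes are shown, because PEPC1, PPDK and NAD-ME2 gave the largest C4 cycle signals in mature leaves and RPT6A served as a reference. All are written 5′ to 3′ in lower case, with no part marked. Their places within the unigenes were not checked here, and no qRT-PCR value was used.
PEPC1 forward: cccgctttgttgagtacttcc
PEPC1 reverse: gcttccgatattcatgcgtcc
PPDK forward: gggattggctttctcttaatgga
PPDK reverse: aggtggtgaaagcggttcttt
NAD-ME2 forward: attgggttgggagctttgc
NAD-ME2 reverse: aggaagcaagacattcagcg
RPT6A forward: tgtactgaagcaggtatgtttgc
RPT6A reverse: tcttcctgtgttacgtgaatcc

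By the read totals that the study lists, every mature library was shallower than every young library, so depth and stage cannot be told apart. The 6 marker unigenes of photosynthetic leaf cells, PEPC1, PPDK, NAD-ME2, PSAD2, PORC and LPA1, summed to 22668 to 23240 TPMTMM in mature libraries and 4522 to 4574 in young libraries, and all 6 rose. PEPC1, PPDK and NAD-ME2 made up most of these sums. They are C4 cycle enzymes that the study selected in the same libraries, so the sums repeat their rise and do not count cells. The 4 markers of dividing cells (HTR12, TPX2, CTF18 and CSLD5) summed to 30.8 to 35.7 TPMTMM in mature and 64.8 to 77.9 in young libraries. All 4 fell, beside 23.9% of all unigenes. They come from lists written with earlier results of these data known, so their sums do not count cells either. Of the 9 unigenes listed under cell division and DNA repair, which include HTR12, TPX2 and CTF18, 4 fell and 5 did not pass the test. The 4 markers of the epidermis and the stomatal lineage summed to 180 to 186 TPMTMM in mature and 278 to 329 in young libraries, where CER1 and KCS1 fell, SBT1.2 rose and GPAT4 did not pass the test. The SBT1.2 rise (0.59) was lost in TPM without scaling and whenever 1 library other than mature 3 was left out (0.43 to 0.81 with 1 library left out). CSLD5 was under 0.5 TPM in every mature library, and the other 13 markers were above it in both stages. The part of changing cell types in the results was not tested. Mature 1 stood apart from mature 2 and 3. It lay more than 2 log2 units above both in 88 unigenes and below both in 33, against at most 5 and 8 for either of the other mature libraries. Young 3 stood apart too, as far below young 1 and 2 in 38 unigenes and above them in 4, against 0 for either of these.

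In mature leaves 2829 unigenes rose (24.2% of those tested) and 2801 fell (23.9%), by limma on log2(TPMTMM + 1) at a Benjamini-Hochberg adjusted p under 0.05. The fold change exceeded 1 on the log2 scale in 1213 rises (10.4%) and 940 falls (8.03%). It exceeded 3 in 42 rises and 68 falls, and 5 in 1 rise and 6 falls. The 3 mature libraries all lay above the 3 young ones in 3275 unigenes (28.0%) and all below in 3428 (29.3%). For 2519 unigenes (21.5%) the 95% interval of the log2 fold change lay within 0.5 of 0, and 95 of these were called nonetheless. The split between rises and falls depended on the scaling. The median log2 fold change was -0.02 in TPMTMM, but -0.57 in TPM without scaling, where 1297 unigenes rose (11.1%) and 6663 fell (56.9%), and -0.20 in TPM with upper-quartile scaling, where 2247 rose (19.2%) and 4003 fell (34.2%). Median-of-ratios scaling of TPM gave 2956 rises (25.2%) and 2851 falls (24.3%), with a median of -0.02, so it was as even as TPMTMM. Both scalings align the libraries on a typical ratio of their unigenes, which brings the median close to 0. Their evenness is therefore no evidence that rises and falls were balanced. Changes are given relative to the TPMTMM scale unless another is named.

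The most abundant unigenes were mostly higher in mature leaves. Abundance was taken from the mean of the 3 intermediate libraries, which belong to neither stage, and these classes were chosen once the values were known. Of the 58 unigenes above 1000 TPMTMM in intermediate leaves, 45 rose in mature leaves (77.6%) and 5 fell, with a median log2 fold change of 1.49. Without scaling, in TPM, 35 of them rose and 8 fell. The 4 named unigenes in this class, PEPC1, PPDK, PSAD2 and NAD-ME2, all rose. Between 100 and 1000 TPMTMM, 350 of 903 rose and 251 fell, but in TPM without scaling 196 rose and 460 fell. Up to 5 TPMTMM, 344 of 1728 rose and 401 fell. Classes by the mean of all 9 libraries, which hold the compared values themselves, gave 56 rises (82.4%) and 4 falls among 68 unigenes above 1000 TPMTMM, and 230 rises and 384 falls among 1546 up to 5. In the lowest class the deposited values limit the view, since TPM were rounded to whole numbers and 1 was added before scaling. A further setting, also added once the values were known, multiplied the unrounded TPM by the same factors, and 301 rose and 563 fell in the lowest class by intermediate leaves. Over all unigenes 2705 then rose (23.1%) and 3217 fell (27.5%).

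**Figure D1:**
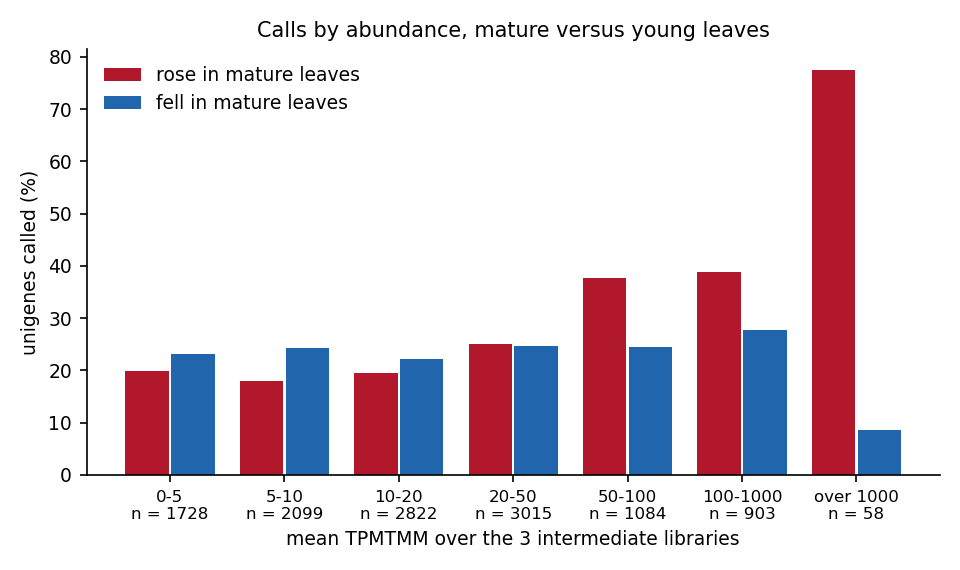
Share of unigenes (%) that rose (left bar) or fell (right bar) in mature against young leaves, by classes of mean TPMTMM over the 3 intermediate libraries, with the number of unigenes under each class. The share that rose is 18 to 25% in the classes up to 50 TPMTMM and 77.6% above 1000, while the share that fell lies between 22.1% and 27.8% in the classes up to 1000 and is 8.62% above it.

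The unigenes that rose held 39.3, 37.4 and 34.6% of all TPM in the 3 mature libraries, against 21, 22 and 18.4% in the young libraries. Those that fell held 6.09, 6.69 and 5.80% in mature libraries and 17.3, 18.1 and 17.8% in young libraries. These shares describe the unigenes chosen by the test and are no support for it. The unigenes that were not tested held 38.6 to 45.9% of TPM in mature and 38.4 to 44.4% in young libraries. Among them, the 2 most abundant unigenes of the TPM table alone took 2.08, 3.34 and 8.27% of TPM in mature 1, 2 and 3 and 4.63, 2.72 and 7.60% in young 1, 2 and 3. This share varied within each stage, and every TPM of a library moves against it.

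The 12 unigenes listed under the C4 cycle, 9 enzymes and 3 transporters, are those that the study checked by qRT-PCR. The list covers only a part of the cycle. The study also counts others in it, such as ALA-AT2, PPT1 and BASS2, and it assigns TPT to a triose-phosphate shuttle. All 12 listed unigenes were upregulated in mature leaves, beside 24.2% of all unigenes. Together they held 2.39, 2.41 and 2.18% of TPM in the mature libraries, against 0.804, 0.835 and 0.786% in the young libraries. The groups did not overlap, and the mean share was 2.88 times as high in mature leaves (exact permutation test, two-sided p = 0.1, the smallest that 3 libraries against 3 allow). Intermediate libraries held 1.22, 1.16 and 1.57%. The median log2 fold change was 1.90 over the enzymes and 1.25 over the transporters, beside -0.02 over all unigenes. The study selected these genes in the same libraries, so their directions are not independent evidence.

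PEPC1, the carboxylase of the first CO2 fixation, had 9098, 9965 and 10033 TPMTMM in mature leaves and 1303, 1269 and 1476 in young leaves (log2 fold change 2.85, standard error 0.24, adjusted p = 3.15e-05). It ranked 2 among the tested unigenes by mean TPMTMM in mature leaves and 22 in young leaves. PPDK, which regenerates phosphoenolpyruvate in the chloroplast, had 6864, 7105 and 7123 TPMTMM in mature and 1154, 1119 and 1276 in young leaves (log2 fold change 2.57, standard error 0.22). In both unigenes every mature library was several times above every young library, with little spread within a stage. NAD-ME2, a subunit of the mitochondrial NAD-malic enzyme, had 2587, 2854 and 2630 TPMTMM in mature leaves and 708, 722 and 753 in young leaves (log2 fold change 1.88, standard error 0.22).

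Carbonic anhydrase supplies bicarbonate to PEPC. CAb1 had 1535, 1317 and 1105 TPMTMM in mature and 512, 516 and 426 in young leaves, and CAb2 had 1617, 1498 and 1347 against 347, 377 and 326 in young leaves. Their log2 fold changes were 1.43 (standard error 0.16) for CAb1 and 2.08 (standard error 0.16) for CAb2. The aspartate aminotransferases interconvert oxaloacetate and aspartate. ASP-AT1 had 935, 884 and 787 TPMTMM in mature and 225, 236 and 235 in young leaves (log2 fold change 1.90, standard error 0.17), and ASP-AT2 had 2562, 2070 and 1748 in mature and 543, 564 and 512 in young leaves (1.96, standard error 0.19). For both CAb unigenes and both aminotransferases, mature 1 was the highest and mature 3 the lowest of the mature libraries.

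The malate dehydrogenases interconvert oxaloacetate and malate. Here cMDH1 had 723, 741 and 649 TPMTMM in mature and 506, 554 and 501 in young leaves (log2 fold change 0.43, standard error 0.11, adjusted p = 0.0101), the smallest rise among the 12. In TPM without scaling its sign turned to a log2 fold change of -0.11 that did not pass the test. The mitochondrial mMDH2 had 1135, 1228 and 1184 TPMTMM in mature and 628, 674 and 640 in young leaves (0.87, standard error 0.12). The groups did not overlap for either, but cMDH1 kept its rank, 129, in both stages.

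Among the transporters, TPT, which exchanges triose phosphate across the chloroplast envelope, had 1657, 1300 and 1142 TPMTMM in mature and 543, 575 and 376 in young leaves (log2 fold change 1.46, standard error 0.20). UCP1, a mitochondrial carrier, had 384, 442 and 424 TPMTMM in mature and 189, 174 and 160 in young leaves (1.25, standard error 0.14). DTC, a mitochondrial dicarboxylate and tricarboxylate carrier, had 391, 332 and 304 TPMTMM in mature and 236, 251 and 209 in young leaves (0.56, standard error 0.12). The DTC rise did not pass in TPM without scaling. DTC also had 3 further isoforms of the same Trinity gene (the assembler's group of related transcripts), which were not tested. The most abundant of these had 19.5, 14 and 5.59 TPM in mature and 36.9, 44.9 and 45 TPM in young leaves, lower in every mature library. A second isoform of CAb2 had 29.6, 35.2 and 57.1 TPM in mature and 59.8, 67.0 and 55.1 in young leaves, with overlapping groups. RSEM divides reads between near-identical isoforms, so the split within these Trinity genes is uncertain.

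**Figure D2:**
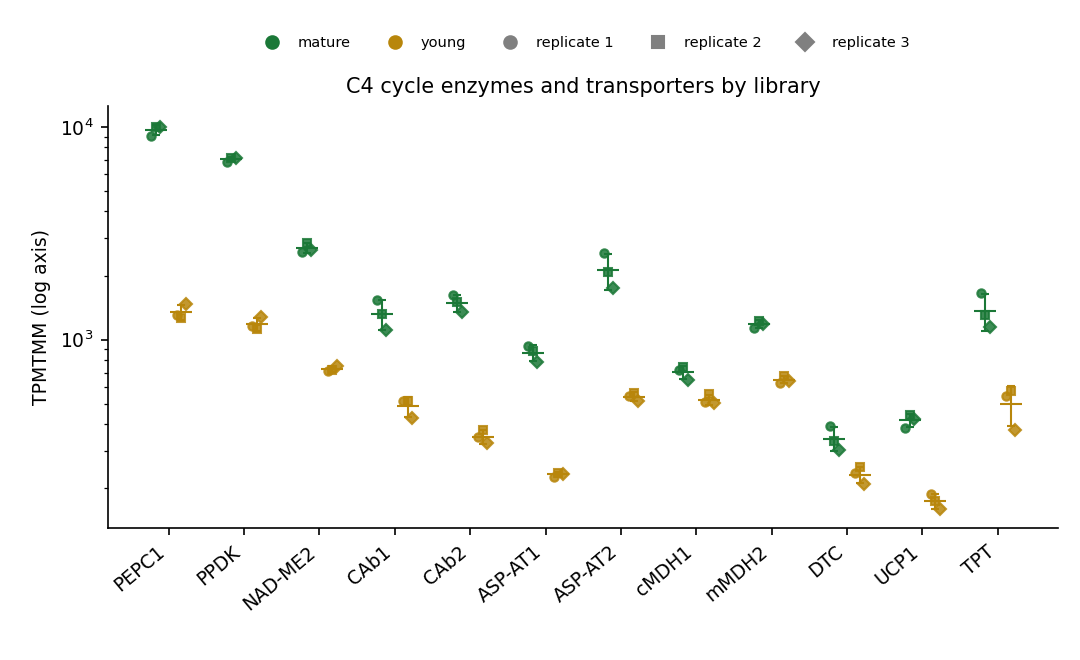
TPMTMM (log axis) of the 12 C4 cycle unigenes in the 3 mature libraries (left of each pair) and the 3 young libraries (right), with 1 symbol per replicate, the mean as a dash and bars of 1 SD (n = 3). Every mature point lies above every young point, with the widest gap for PEPC1 and PPDK and the narrowest for cMDH1 and DTC.

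The reference unigene RPT6A, of the proteasome, had 121, 134 and 124 TPMTMM in mature and 128, 133 and 136 in young leaves. SAND, the other reference, had 23.4, 24.6 and 26.1 in mature and 26.6, 25.2 and 24.5 in young leaves. In TPMTMM the groups overlapped for both, and both 95% intervals lay within 0.5 of 0 on the log2 scale. This too depended on the scaling. RPT6A had 96.6, 108 and 94.4 TPM in mature and 148, 157 and 154 TPM in young leaves, and SAND had 17.95, 19.05 and 18.95 TPM in mature and 29.92, 28.96 and 27.12 TPM in young leaves. Both fell in TPM without scaling, with log2 fold changes of -0.61 for RPT6A and -0.59 for SAND, close to the shift of -0.57 over all unigenes, and their groups did not overlap.

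Of the other plastid unigenes that the sources name, 13 of 16 rose in mature leaves and 2 fell, beside 24.2% and 23.9% over all unigenes. All 6 of photosystems and chlorophyll rose (median log2 fold change 1.07). PSAD2, a subunit of photosystem I, had 3747, 2849 and 2455 TPMTMM in mature and 1153, 1220 and 850 in young leaves (log2 fold change 1.48, standard error 0.21, adjusted p = 0.000525). LPA1, an assembly factor of photosystem II, had the tightest values of the group, 35.8, 34.5 and 32.6 TPMTMM in mature and 12.9, 13.5 and 12.3 in young leaves (1.35, standard error 0.10). This rise belongs to the named isoform. The tested partners of its Trinity gene did not pass (-0.05 and -0.22). The untested isoform most abundant in young leaves had 6.59, 8.24 and 5.09 TPM in mature and 17.92, 19.48 and 13.03 TPM in young leaves. CPX1, of chlorophyll and heme synthesis, rose by 0.90 and PSB27-1, of photosystem II repair, by 0.88. In TPM without scaling the calls of HCAR and PSB27-1 were lost, so 4 of the 6 rose there, beside 11.1% of all unigenes.

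The 10 other plastid proteins gave 7 rises and 2 falls, beside 24.2% and 23.9% over all unigenes. D27, a carotenoid isomerase of strigolactone synthesis, had 21, 17.2 and 15.7 TPMTMM in mature and 4.28, 5.05 and 5.25 in young leaves (log2 fold change 1.69, standard error 0.20). REC1, which in Arabidopsis sets the share of the cell that chloroplasts fill, had 32.1, 35.7 and 43.1 TPMTMM in mature and 20.6, 16 and 23.6 in young leaves (0.86, standard error 0.17). CLPP5, of the plastid Clp protease, rose by 0.70. The falls were those of AT1G04570 and PDH-E1 ALPHA. AT1G04570 had 2.47, 2.46 and 2.61 TPMTMM in mature and 4.28, 4.21 and 4.38 in young leaves (-0.59, standard error 0.10), close to the rounding floor. With unrounded TPM times the same factors it had 0.827, 1.35 and 1.12 in mature and 3.53, 3.12 and 3.54 in young leaves, and its log2 fold change was -1.07. PDH-E1 ALPHA, of the plastid pyruvate dehydrogenase that feeds fatty acid synthesis, had 109, 92.3 and 94.0 in mature and 142, 155 and 128 in young leaves (-0.52, standard error 0.11). In TPM without scaling only 3 of the 7 rises were called, and the 2 falls remained, where 11.1% of all unigenes rose and 56.9% fell.

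Unigenes of dividing and shaping cells were lower in mature leaves where they were called. Of 9 unigenes of cell division and DNA repair, 4 fell and none rose (median log2 fold change -0.54), where 23.9% of all unigenes fell and 24.2% rose. All 9 fell in TPM without scaling, where 56.9% of all unigenes fell. BARD1, a DNA repair protein, had 3.70, 4.92 and 3.92 TPMTMM in mature and 15.4, 16 and 21 in young leaves (log2 fold change -1.83, standard error 0.15, adjusted p = 2.73e-05). TPX2, which nucleates spindle microtubules, had 4.93, 4.92 and 3.92 in mature and 12, 11.8 and 14.9 in young leaves (-1.31, standard error 0.13). CTF18, of chromatid cohesion, had 3.70, 6.15 and 6.53 in mature and 12, 11.8 and 14 in young leaves (-1.10, standard error 0.18). HTR12, the centromeric histone, kept a higher level, with 21, 23.4 and 22.2 TPMTMM in mature and 31.7, 31.1 and 35 in young leaves (-0.54, standard error 0.10). No mature library overlapped a young one in any of these 4, yet none of the 4 was at 0 in mature leaves.

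Of 7 unigenes of the cytoskeleton and cell shape, 4 fell and none rose (median -0.74), beside the same 23.9% and 24.2% over all unigenes. All 7 fell in TPM without scaling, where 56.9% of all unigenes fell. NET3A, of a family of actin-binding proteins, had 1.23, 1.23 and 1.31 TPMTMM in mature and 8.57, 8.41 and 9.63 in young leaves (log2 fold change -2.13, standard error 0.12). The 3 mature values are what the deposited scale gives to any TPM under 0.5, so the size of this fall depends on that floor. AN (ANGUSTIFOLIA), which in Arabidopsis controls cell expansion across the leaf, had 13.6, 16 and 17 in mature and 33.4, 34.5 and 49.0 in young leaves (-1.26, standard error 0.16). KINUB, a kinesin, fell by 0.98 and ROPGEF2, an activator of Rop GTPases, by 0.66, the second at the floor in all mature libraries.

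Among 11 unigenes of cell wall and glycan enzymes 3 fell and 1 rose, beside 23.9% and 24.2% over all unigenes. In TPM without scaling 8 fell, where 56.9% of all unigenes fell. CSLD5, a cellulose synthase-like protein of the cell plate, had 1.23, 1.23 and 1.31 TPMTMM in mature and 10.3, 10.1 and 14 in young leaves (log2 fold change -2.45, standard error 0.15). CEL2, an endoglucanase, was at the same floor in mature leaves and had 8.57, 8.41 and 15.8 in young leaves (-2.35, standard error 0.22). PGA3, a polygalacturonase, fell by 0.63 with all mature values at the floor, and its call was lost without young 1 or young 2 (-0.81 to -0.47 with 1 library left out). AT1G01570 rose, with 7.40, 11.1 and 40.5 TPMTMM in mature and 2.57, 1.68 and 3.50 in young leaves (2.20, standard error 0.57), and its value was 1.52 without mature 3. Of its Trinity gene 2 further unigenes were tested, and both rose too (2.78 and 2.54).

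Of 9 unigenes of wax, cutin and membrane lipid, 4 fell and none rose (median -0.27), beside 23.9% and 24.2% over all unigenes. In TPM without scaling 6 fell, where 56.9% of all unigenes fell. CER1, of wax alkane synthesis, had 3.70, 2.46 and 2.61 TPMTMM in mature and 38.6, 37 and 21.9 in young leaves (log2 fold change -3.06, standard error 0.44). KCS1, which elongates fatty acids for waxes, had 67.8, 54.2 and 56.1 in mature and 153, 159 and 124 in young leaves (-1.28, standard error 0.12). AT1G01630 fell by 0.77. GPAT2, an acyltransferase, fell by 2.22, with 1.23 TPMTMM in mature 1 at the floor and 3.69 and 3.92 in mature 2 and 3, against 13.7, 13.5 and 23.6 in young leaves. KCS2 and GPAT4, with log2 fold changes of -0.27 and -0.24, did not pass the test.

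**Figure D3:**
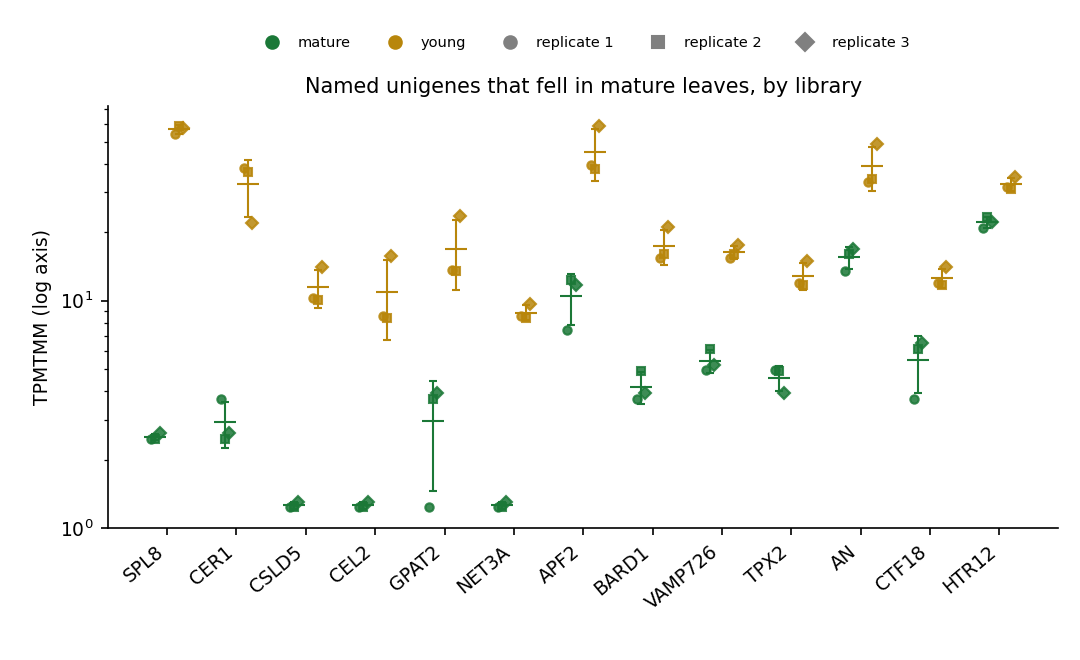
TPMTMM (log axis) of 13 named unigenes that fell, in the 3 mature libraries (left of each pair) and the 3 young libraries (right), with 1 symbol per replicate, the mean as a dash and bars of 1 SD (n = 3). Mature values of CSLD5, CEL2 and NET3A lie at 1.23 to 1.31, the lowest value the deposited scale allows in these libraries, and HTR12 has the narrowest gap.

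Of the 8 transcription factors 3 rose and 2 fell, beside 24.2% and 23.9% over all unigenes. In TPM without scaling 2 rose and 4 fell, beside 11.1% and 56.9% over all unigenes. SPL8, of the SQUAMOSA promoter-binding family, had 2.47, 2.46 and 2.61 TPMTMM in mature and 54.0, 58.9 and 57.8 in young leaves (log2 fold change -4.04, standard error 0.13), the largest fall among the 209 named unigenes. ERF023, of the ethylene response factor family, had 7.40, 12.3 and 6.53 in mature and 23.1, 25.2 and 19.3 in young leaves (-1.31, standard error 0.20). LHY, of the circadian clock, had 18.5, 92.3 and 82.2 in mature and 8.57, 7.57 and 14.9 in young leaves (2.29, standard error 0.60). The hour of harvest is not given in the sources used here, and mature 1 lay close to young 3. HMGB15, a DNA-binding protein, rose by 1.43 from low values, 2.47, 7.39 and 5.22 TPMTMM in mature and 0.857, 1.68 and 0.875 in young leaves. The third rise was that of MGP (0.54), which was lost without young 1, young 2 or mature 2 and had a log2 fold change of -0.0042 in TPM without scaling.

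Of 8 unigenes of hormones and light 2 rose and none fell, a share of 25% that is near the 24.2% of all unigenes that rose. In TPM without scaling 1 of these 8 rose and 3 fell, and of 5 kinases and phosphatases none rose and 2 fell. On that scale 11.1% of all unigenes rose and 56.9% fell. PYL9, a receptor of abscisic acid, had 14.8, 25.8 and 26.1 TPMTMM in mature and 6.86, 7.57 and 7.0 in young leaves (log2 fold change 1.47, standard error 0.22, adjusted p = 0.000736). AAO4, an aldehyde oxidase, had 38.2, 32 and 32.6 in mature and 21.4, 20.2 and 14.9 in young leaves (0.84, standard error 0.21), but another unigene of its Trinity gene fell by 0.39. The other 6 of 8 unigenes of hormones and light did not pass, among them CRY2, a blue light receptor, with a log2 fold change of 0.19. In TPMTMM 2 of the 5 kinases and phosphatases rose and none fell. AT1G01540 had 72.8, 66.5 and 73.1 TPMTMM in mature and 42.8, 42.9 and 42.9 in young leaves (0.71, standard error 0.09), and AT1G03920 rose by 0.65. In TPM without scaling the calls of AAO4 and both kinases were lost.

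Of 15 unigenes of proteolysis 4 rose and 3 fell, near the 24.2% and 23.9% over all unigenes. CATHB2, a cathepsin B-like protease, had 638, 255 and 210 TPMTMM in mature and 144, 156 and 80.5 in young leaves (log2 fold change 1.40, standard error 0.42), lost its call without young 3 and had a log2 fold change of 0.92 without mature 1 (0.92 to 1.72 with 1 library left out). AMC1, a metacaspase, had 23.4, 14.8 and 15.7 in mature and 10.3, 10.1 and 5.25 in young leaves (1.01, standard error 0.30), and lost its call without young 3 or mature 1. Without young 3 none of the 4 rises was called. APF2, an aspartic protease, had 7.40, 12.3 and 11.7 in mature and 39.4, 37.9 and 58.7 in young leaves (-2.01, standard error 0.22), which held without any 1 library (-2.13 to -1.80). None of the 15 rose in TPM without scaling, where 8 fell, beside 11.1% of rises and 56.9% of falls over all unigenes.

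Of 11 unigenes of RNA processing 6 fell and 3 rose, beside 23.9% and 24.2% over all unigenes. Of the 11, 8 fell and 1 rose in TPM without scaling, beside 56.9% and 11.1% over all unigenes. With upper-quartile scaling 6 fell and 1 rose, beside 34.2% and 19.2%. RRP4, of the exosome that degrades RNA, had 12.3, 13.5 and 11.7 TPMTMM in mature and 18.9, 21.9 and 26.3 in young leaves (log2 fold change -0.77, standard error 0.14). The splicing factors PRP19A and PRP39 fell by 0.40 and 0.39. SR34, a splicing factor whose groups overlapped, fell by 0.74 and lost its call without young 1, young 2, mature 2 or mature 3. This DCL1 unigene, of an enzyme that cuts microRNA precursors, rose, with 8.64, 6.15 and 5.22 TPMTMM in mature and 2.57, 2.52 and 2.63 in young leaves (1.08, standard error 0.18). Without scaling the named isoform had 5.62, 4.37 and 2.89 TPM in mature and 1.52, 2.07 and 1.91 TPM in young leaves. On that scale the median log2 fold change over all unigenes was -0.57. The further isoforms of the Trinity gene, which were not tested, were lower there in every mature library. Whether they were also lower in TPMTMM was not tested. The more abundant had 4.9, 5.68 and 5.63 TPM in mature and 9.18, 8.32 and 7.03 TPM in young leaves. The less abundant had 2.78, 2.56 and 2.88 TPM in mature and 5.56, 4.04 and 5.16 TPM in young leaves. The other 2 rises, of PRP18a (0.35) and CYP18-1 (0.54), changed sign in TPM without scaling, and the first was lost without any of young 1, 2 and 3, mature 1 and mature 3, the second without young 1, young 3, mature 2 or mature 3. Only 1 rise was called without young 1, without young 3 or without mature 3.

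Of 9 unigenes of ribosomes, transfer RNA and translation 3 fell and none rose, and all 9 had a negative log2 fold change (-0.89 to -0.09). The 3 falls stand beside 23.9% over all unigenes. All 9 fell in TPM without scaling, where 56.9% of all unigenes fell. AT1G03687 had 6.17, 8.62 and 6.53 TPMTMM in mature and 12, 13.5 and 16.6 in young leaves (-0.89, standard error 0.17), and TRM82, of a tRNA methyltransferase, fell by 0.83. Vesicle traffic had 2 falls and no rise among 10 unigenes, beside 23.9% and 24.2% over all unigenes. It had 8 falls in TPM without scaling and 4 with upper-quartile scaling, where 56.9% and 34.2% of all unigenes fell. For 4 of the 10 the 95% interval lay within 0.5 of 0. VAMP726, a SNARE of the plasma membrane route, had 4.93, 6.15 and 5.22 in mature and 15.4, 16 and 17.5 in young leaves (-1.43, standard error 0.13), and PRA1D fell by 0.68.

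Of iron uptake and peroxisomes, FRO2 and PEX11C rose. FRO2, a ferric chelate reductase, had 9.87, 11.1 and 11.7 TPMTMM in mature and 2.57, 2.52 and 2.63 in young leaves (log2 fold change 1.73, standard error 0.13, adjusted p = 2.12e-05). Its young TPM of 1.79, 1.56 and 2.42 were rounded to the same number, which hid their spread, so the standard error may be too small. FRO2 led 3 rises among 6 unigenes of ion and metabolite transport, of which none fell, beside 24.2% and 23.9% over all unigenes. HIPP39, of the heavy-metal-associated proteins, rose by 1.48 but lost its call without young 2, young 3 or mature 1 (0.99 to 1.80), and ABCI19 rose by 0.47 and lost its call without young 1, young 2, mature 2 or mature 3. Only 1 of the 3 rises was called without young 2. In TPM without scaling 1 of the 6 rose and 3 fell, beside 11.1% and 56.9% over all unigenes. PEX11C, which elongates peroxisomes, had 181, 130 and 114 in mature and 87.4, 91.7 and 68.3 in young leaves (0.76, standard error 0.19), while PEX6 did not pass (-0.28), and in TPM without scaling the PEX11C call was lost. Mitochondrial proteins outside the C4 cycle mostly did not pass, with 1 fall and no rise among 8 (3 falls without scaling). Over all unigenes 23.9% fell and 24.2% rose, and 56.9% fell in TPM without scaling. The fall was PHB2, a prohibitin, with 117, 128 and 97.9 TPMTMM in mature and 137, 151 and 158 in young leaves (-0.38, standard error 0.12), lost without young 2, young 3 or mature 3. Of 9 pentatricopeptide repeat proteins, which process organelle RNA, 2 rose and none fell, a share of rises near the 24.2% over all unigenes. AT1G01970 led them, with 21, 23.4 and 23.5 in mature and 15.4, 13.5 and 14.9 in young leaves (0.60, standard error 0.11). The second, AT1G02150 (0.24), was lost without young 2, without young 3 or without any 1 mature library, and fell by 0.31 in TPM without scaling. There none of the 9 rose and 5 fell, beside 11.1% and 56.9% over all unigenes.

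Among 52 further named unigenes in no list 11 rose and 10 fell, beside 24.2% and 23.9% over all unigenes. In TPM without scaling 3 of the 52 rose and 29 fell, beside 11.1% and 56.9% over all unigenes. AT1G01180 had 41.9, 20.9 and 20.9 TPMTMM in mature and 5.14, 5.05 and 4.38 in young leaves (log2 fold change 2.23, standard error 0.24). AT1G01225 had 3.70, 4.92 and 5.22 in mature and 18, 20.2 and 14.9 in young leaves (-1.74, standard error 0.19). Over all 209 named unigenes 57 rose and 44 fell, a share of 48.3% called beside 48.1% over all unigenes, so the named unigenes were called about as often as all unigenes. Without scaling, in TPM, 26 of the 209 rose and 117 fell, beside the same 11.1% and 56.9%.

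**Figure D4:**
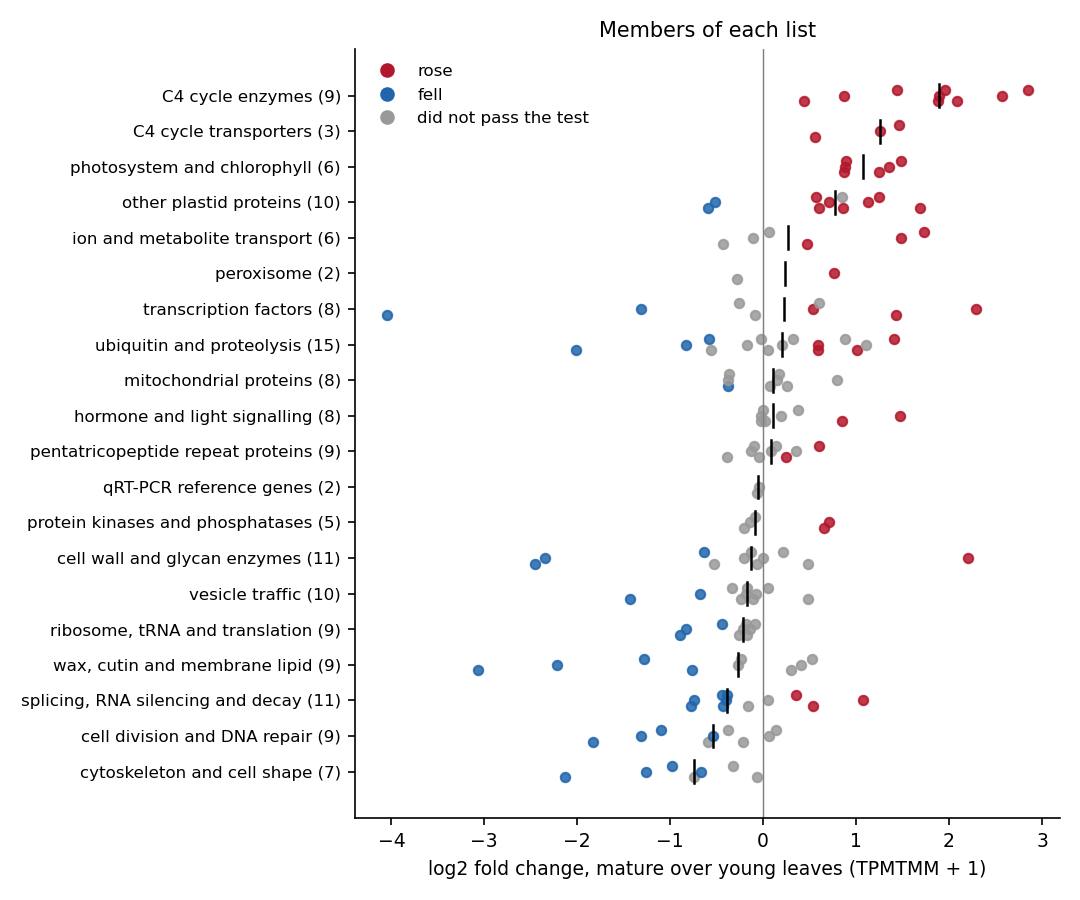
Log2 fold change of TPMTMM + 1, mature over young leaves, for each member of 20 lists (number of members in brackets), ordered by the list median (black line). The lists of the C4 cycle and of photosystems lie at the top with every member above 0, and cell division and cytoskeleton lie at the bottom with medians of -0.54 and -0.74.

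Some unigenes were near silent in 1 stage. With unrounded TPM times the authors' factors, 60 tested unigenes were under 0.5 in every mature library and at 5 or more in every young library, against 3 unigenes the other way round. Over all 36907 unigenes the counts were 114 and 21. The 2 named ones were CEL2, with 0.148, 0.234 and 0.261 in mature and 7.33, 7.73 and 14.7 in young leaves, and NET3A, with 0.148, 0.222 and 0.431 in mature and 7.72, 7.56 and 8.80 in young leaves. CSLD5 was just outside the limit, at 0.234, 0.505 and 0.535 in mature leaves. In intermediate leaves 31 of the 60 still averaged 5 or more.

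Intermediate leaves lay nearer to young than to mature leaves for most unigenes that changed. On the log2 scale the intermediate mean had covered a median of 34.3% of the way to mature leaves for unigenes that rose (quartiles 20.9 and 46.9%) and 30.3% for those that fell (15 and 45.1%). It lay between the means of the other stages for 92.5% of rises and 87.8% of falls. Among the C4 cycle unigenes, PEPC1 had covered 35.6% and PPDK 42.6%, while DTC had covered 80.0%. Among the falls, CER1 had covered 2.1% and BARD1 40.7%. The percentages of the way covered are descriptions, since the end points come from the same contrast.

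Trinity genes with several unigenes did not always move as 1 unit. Of 11100 Trinity genes, 540 had 2 or more tested unigenes. In 37 of these 1 unigene rose and another fell, in 56 at least 2 rose with no fall, and in 22 at least 2 fell with no rise. Among the named unigenes 19 had a tested partner, and the 29 partners had log2 fold changes from -0.80 to 2.78, with 5 rises and 6 falls. LPA1 rose by 1.35, but its tested partners had log2 fold changes of -0.05 and -0.22 and did not pass. AAO4 was the only one called the opposite way to a partner. NAC002, a stress-related transcription factor, did not pass (0.60), although its partner rose by 1.13.

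In 6 named unigenes mature 1 lay over 2 log2 units from mature 2 and 3. BXL2, a beta-xylosidase, had 276, 7.39 and 7.83 TPMTMM in mature and 24.9, 24.4 and 10.5 in young leaves. PPA1, a soluble pyrophosphatase, had 350, 61.5 and 52.2 in mature and 80.6, 78.2 and 32.4 in young leaves. AT1G02610, PLIP2 and AT1G03290 were also high in mature 1, while LHY was low there. Of these 6 only LHY was called. The number of calls over all unigenes was 2968 rises and 2915 falls without mature 1.

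**Figure D5:**
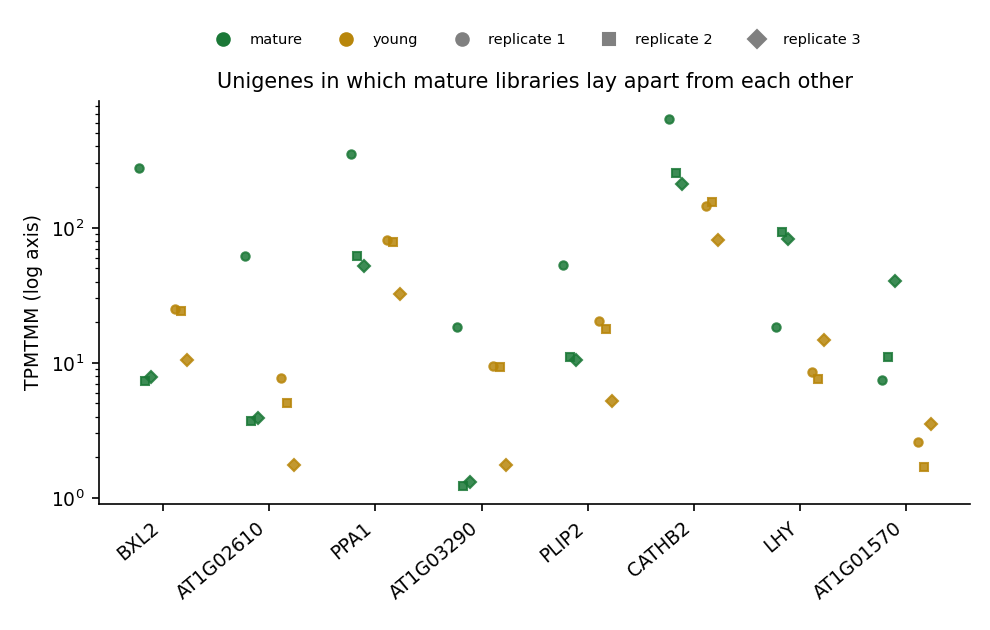
TPMTMM (log axis) of 8 named unigenes with a wide spread among the mature libraries, in mature (left of each pair) and young libraries (right), with 1 symbol per replicate. Mature 1 is the highest point for BXL2, AT1G02610, PPA1, AT1G03290, PLIP2 and CATHB2 and the lowest mature point for LHY and AT1G01570.

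Of called unigenes with no name in the sources used here, the 2 rises and the 2 falls with the largest differences of the mean TPMTMM are given. BS73651_c15_g1_i1 had 23783, 18180 and 14568 TPMTMM in mature and 11126, 11301 and 6002 in young leaves (log2 fold change 1.02, standard error 0.34). BS1471_c3_g1_i1 had 1677, 5266 and 14423 in mature and 625, 467 and 531 in young leaves (3.23, standard error 0.76), with a wide spread among the mature libraries. BS27085_c0_g2_i1 had 526, 1334 and 1334 in mature and 2485, 2647 and 2991 in young leaves (-1.46, standard error 0.33). BS94654_c7_g1_i1 had 33.3, 12.3 and 13.1 in mature and 1680, 1721 and 1008 in young leaves (-6.27, standard error 0.48). None of the 4 had overlapping groups in TPMTMM. Their values in TPM without scaling are not given here, so the separation is stated for the TPMTMM scale only.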

How the data were processed

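RNA of mature and young leaves was compared, with 3 libraries each. As far as the sources say, the authors prepared stranded mRNA libraries, used Trimmomatic for trimming, Trinity for an assembly of all 9 libraries and RSEM for quantification (no versions are stated), and reduced redundancy by TPM and CD-HIT-EST. Their own fold changes were not used. The deposited tables hold TPM of 36907 unigenes and TPMTMM of 11709. For all but 1 unigene, TPMTMM was the rounded TPM plus 1, times 1 factor per library (tolerance 0.001), 0.841 to 0.875 in young and 1.23 to 1.31 in mature libraries. Read counts per unigene were not used here, so counting intervals and the depth of single values are unknown.

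Stages were compared with limma 3.58.1 in R 4.3.3 (limma-trend on log2(TPMTMM + 1), 9 libraries, stage as the only term, Benjamini-Hochberg over 11709 unigenes, threshold 0.05). The 1 added understates changes of low unigenes. The step was tested on simulated data. Figures used Python 3.11.15 and matplotlib 3.10.9. Names are Arabidopsis best hits from the study's text (14) and the first rows of its Dataset S1 (195), sorted there by locus. Values in every library were given for the C4 cycle and, in each list, the called member with the largest rise and fall; further members by their fold change, and those shown in full beyond this rule were chosen after their values were seen. Members and lists were chosen with earlier results of these data known. Alternatives were other added values, a filter, other scalings, other sets of libraries and a replicate block.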

Additional observations from a re-analysis of the deposited data

How the results depend on the processing

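The counts of unigenes that rose and fell stayed within 1.5 times the reported 2829 and 2801, except in TPM without scaling (1297 rose and 6663 fell) and when all 36907 unigenes of the TPM table were tested (5244 and 4658, where more unigenes were tested). With no scaling, 1411 unigenes had all mature libraries above all young ones and 6919 had them below. Leaving out 1 library gave 2369 to 2968 rises and 2317 to 2915 falls. Same-numbered mature and young libraries had correlations of deviations of 0.47, -0.43 and 0.41. The best match was young 2 for mature 1, and young 3 for mature 2 and for mature 3. Whether replicate numbers pair the libraries cannot be told from these mixed values. A replicate block gave 2510 rises and 2335 falls in the fit of 6 libraries, and 3062 and 2997 in the fit of 9. The share of the 12 listed C4 cycle unigenes differed by 1.52 percentage points of TPM and by 2.60 of summed TPMTMM. With 1 library left out it differed by 1.48 to 1.59 points of TPM. In TPM without scaling the sign turned for ABCI19 (-0.0742), AT1G02150 (-0.31), cMDH1 (-0.11), CYP18-1 (-0.0370), MGP (-0.0042) and PRP18a (-0.18), since the whole distribution shifted by -0.57. Of 83 called unigenes with a name and a recomputed fold change, 23 lost their call without scaling, where RPT6A and SAND gained one, 7 lost it with upper-quartile scaling and 5 to 13 when 1 library was left out. With the replicate block 5 lost their call in the fit of 6 libraries and 2 in the fit of 9. Abundance classes by intermediate leaves, chosen after seeing the data, kept the counts above 1000 TPMTMM and up to 5 TPMTMM within 1.5 times those by all libraries. Rounded TPM limit the precision of unigenes at or near the floor in either stage. Where the TPM of a stage round to the same number, as for FRO2 and DCL1 in young leaves and SPL8 in mature leaves, their spread is hidden. Standard errors and p-values of such unigenes may then be too small.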
